A study of Mus musculus with 23 samples.

Results

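In control hearts, mice given aldosterone were set against untreated mice, which made 10 of the 23 arrays of the study. The 5 treated and 5 untreated mice were chosen by their sample titles, and both groups were male, non-transgenic mice with a stated duration of 7 days. Mouse numbers below are the sample numbers within each group, not the animal numbers of the titles. The same number in both groups thus names different mice. RNA came from the ventricles of 1 mouse per array. It carried the dye Cy5 and was hybridised with a common reference in Cy3, RNA of spleen, kidney, heart, brain and liver mixed together. Each value is therefore a log2 ratio of heart over that pool, and a ratio below 0 means that the gene was lower in heart than in the pool. The other arrays were from 6 MR-Cardio mice given aldosterone and 7 untreated MR-Cardio mice, whose cardiomyocytes overexpress the mineralocorticoid receptor. They are used below only where the control hearts are set beside them. The sources used here do not give the dose and route of aldosterone, the age or the strain.

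Aldosterone is the adrenal steroid that drives sodium retention in the kidney. It acts through the mineralocorticoid receptor, a nuclear receptor that the heart also contains, where cortisol or corticosterone can occupy it too. An excess of aldosterone, above all with salt, is known for cardiac fibrosis, inflammation and hypertrophy. Genes such as Sgk1, Tsc22d3, Per1 and Fkbp5 are common targets of mineralocorticoid and glucocorticoid receptors. Adult heart muscle cells rarely divide, so genes of the mitotic spindle are normally low in the heart and reflect its dividing cells of any type.

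The arrays carried 21892 named genes. Correlations between the 10 control arrays ran from 0.928 to 0.958. The list of 5 ventricular markers had mean ratios from 1.02 to 1.49 in treated hearts and from 0.98 to 1.21 in untreated hearts, and the list of 10 atrial markers from −1.39 to −1.31 in treated hearts and from −1.44 to −1.26 in untreated hearts. Members of both lists varied widely around these means, and those named next were picked after their values were seen. The ventricular markers Myl2 and Irx4 were high, at mean log2 ratios of 3.44 and 2.56 in treated hearts and 3.44 and 2.58 in untreated hearts. The atrial markers Myl7 and Sln were low, at −4.74 and −5.20 in treated hearts and −4.84 and −5.27 in untreated hearts. The ventricular marker Myh7 was low, at −3.43 in treated and −3.05 in untreated hearts, and the atrial marker Tbx5 was high, at 2.02 in treated and 2.11 in untreated hearts, so the lists bear on the label only in part. In 1 untreated heart, mouse 1, Ucp1, a gene of brown fat, stood at −1.64, while it lay between −5.87 and −4.91 in the other untreated hearts and between −5.73 and −4.74 in the treated hearts. Signals over background were not used here, and precision is set by the number of mice.

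Genes of cell division were higher in the hearts given aldosterone, and they made up most of what passed the test. With the control hearts alone in the fit, 8 of 21892 genes (0.0365%) passed an adjusted p of 0.05 (limma, Benjamini-Hochberg over all genes), and all 8 rose: Bub1b, Bub1, Kif11, Cdca5, Dscc1, Neil3, Ccnd1 and Qpct. With all 23 arrays in 1 fit, so that the spread of the MR-Cardio mice counted too, 0 genes passed (0%). The 8 genes then had adjusted p-values from 0.513 to 0.874. At an unadjusted p under 0.05, 1419 genes (6.48%) were counted in the control hearts alone and 1036 (4.73%) in the fit of all arrays. Differences leaned upward, with 863 genes (3.94%) higher and 556 (2.54%) lower at that level in the control hearts alone, and 628 (2.87%) and 408 (1.86%) in the fit of all arrays. The median difference over all genes was 0.01 on the log2 scale.

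The number of calls depended on single mice. Of the 10 fits that left out 1 mouse, 1 call remained without untreated mouse 2, untreated mouse 4 or treated mouse 5. There were 2 calls without treated mouse 2, 3 or 4, then 4 without treated mouse 1, 5 without untreated mouse 1, 11 without untreated mouse 3 and 30 without untreated mouse 5. Of the 11, 5 were among the 8 genes above, of the 4 it was 3, and of the 30 it was 8. Bub1b passed in all 10 of these fits, Dscc1 in 5, and Cdca5 and Kif11 in 3 each, and Neil3, Ccnd1, Bub1 and Qpct in 2 each. When the genes with the lowest mean ratios were left out, so that 16419 were tested, 0 genes passed. That filter kept Qpct (adjusted p = 0.0839) and none of the other genes that rose, and it kept 14 of the 71 mitosis genes described next.

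Bub1b, Bub1, Kif11 and Cdca5 act at the mitotic spindle or on sister chromatids. Bub1b encodes BubR1, which holds chromosome separation back until every chromosome is attached. Its log2 ratios were −1.16, −1.12, −1.36, −1.29 and −1.38 in treated hearts, against −2.90, −2.35, −2.54, −2.57 and −2.47 in untreated hearts. Every treated heart lay above every untreated one, with a wide gap between the groups. The difference was 1.30 ± 0.11 (SE, adjusted p = 0.00547), or 2.47-fold. Bub1, a kinase of the same checkpoint, gave −0.77, −0.93, −1.07, −1.73 and −1.43 in treated hearts and −3.17, −2.68, −2.62, −2.67 and −2.47 in untreated hearts. The treated hearts varied more for Bub1 than for Bub1b, yet none came near the untreated range. Its difference was 1.54 ± 0.20 (adjusted p = 0.045).

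Kif11, the kinesin motor that pushes the spindle poles apart, stood at −1.23, −1.22, −1.19, −1.30 and −1.46 in treated hearts and at −2.59, −2.19, −2.13, −2.15 and −2.03 in untreated hearts. Treated hearts were close together, and untreated mouse 1 was the lowest of all. The difference was 0.94 ± 0.11 (SE, adjusted p = 0.028). Cdca5 encodes sororin, which keeps sister chromatids joined until they separate. It was −2.22, −2.36, −2.32, −2.28 and −2.18 in treated hearts and −3.40, −3.19, −3.19, −3.03 and −2.90 in untreated hearts. The groups did not overlap, and the difference was 0.87 ± 0.09 (adjusted p = 0.025).

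Dscc1 belongs to an alternative loader of the replication clamp that also serves chromatid cohesion. Its ratios were −0.52, −1.01, −0.87, −0.90 and −0.83 in treated hearts and −1.84, −2.19, −2.27, −2.0 and −1.81 in untreated hearts. Treated mouse 1 was the highest, and the groups stayed well apart. The difference was 1.20 ± 0.12 (SE, adjusted p = 0.0195). Neil3 is a DNA glycosylase that removes oxidised bases and is found mainly in proliferating cells. It showed −0.17, −0.55, −0.42, −0.17 and 0.19 in treated hearts, against −2.60, −1.54, −2.24, −1.78 and −1.71 in untreated hearts. This was the largest difference among the 8 genes, at 1.75 ± 0.21 (adjusted p = 0.0383), or 3.36-fold, and no treated heart fell into the untreated range.

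Ccnd1 encodes cyclin D1, the partner of CDK4 and CDK6 that carries growth signals into the start of the cell cycle. Its ratios were −0.68, −0.44, −0.10, −0.35 and −0.12 in treated hearts and −1.48, −1.29, −1.19, −1.23 and −1.12 in untreated hearts. The lowest treated heart was still clearly above the highest untreated one. The difference was 0.92 ± 0.12 (SE, adjusted p = 0.0485). Qpct is the only one of the 8 genes that is not a gene of cell division or DNA upkeep; it encodes glutaminyl-peptide cyclotransferase, which caps the ends of peptides. It was 1.03, 0.99, 1.09, 1.21 and 1.06 in treated hearts and 0.39, 0.60, 0.56, 0.41 and 0.47 in untreated hearts. Qpct was also the only one above the reference pool in both groups, and its difference was 0.59 ± 0.07 (adjusted p = 0.028). Each of the 8 genes was read by 1 probe.

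**Figure D1:**
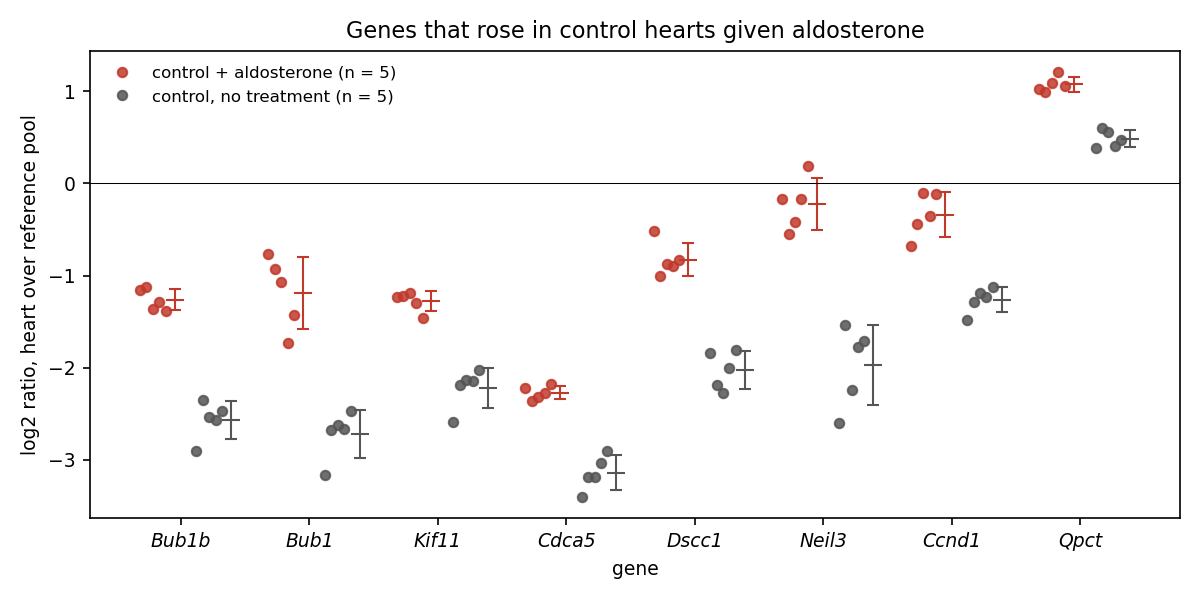
Log2 ratio of heart over the reference pool (vertical axis) for the 8 genes that rose in control hearts given aldosterone, with 1 point per mouse, treated mice in red at the left and untreated mice in grey at the right of each pair, and the mean with SD as a bar (n = 5 each). For each gene the treated points lie above all untreated points, and Neil3 shows the largest gap between means, at 1.75.

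The mitotic list as a whole lay in the same direction. Of 71 measured genes of mitosis and the spindle, 63 (88.7%) had a higher mean in treated hearts, against 52.2% of all genes, and the median difference was 0.56. Over the 14 of them that the filter on low mean ratios kept, the median was 0.13. Of all 71 genes, 48 were higher and 0 lower at an unadjusted p under 0.05 in the control hearts alone, against 3.94% and 2.54% of all genes. In the fit of all arrays there were 36 and 0, against 2.87% and 1.86%. In 38 of the 71 every treated heart was above every untreated one, which was the case for 1.11% of all genes. Bub1b, Bub1, Kif11 and Cdca5 were the members past the adjusted threshold. Earlier results of these data had already pointed to cell cycle genes, so the list is no independent evidence of its direction. The mean ratio of the list was −0.80, −0.92, −0.88, −1.01 and −0.98 in treated hearts and −1.64, −1.62, −1.45, −1.41 and −1.25 in untreated hearts, with no overlap.

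Several members fell just short of the threshold. Birc5, which encodes survivin of the chromosomal passenger complex, was higher by 0.83 ± 0.11 (SE, adjusted p = 0.0557). Cdca8, or borealin, of the same complex was higher by 0.54 ± 0.08 (adjusted p = 0.0569). Sgo1, the shugoshin that guards cohesion at centromeres, was higher by 1.13 ± 0.16 (adjusted p = 0.0557). Plk1, a kinase that runs several steps of mitosis, showed 0.55 ± 0.08, Ccna2, or cyclin A2, 1.11 ± 0.16, and the kinase gene Melk 1.55 ± 0.23, each with an adjusted p of 0.0569. Kntc1, part of a complex at the kinetochore but not on the list, differed by 1.47 ± 0.21 (adjusted p = 0.0569). All these genes also separated the groups without overlap. The members with the lowest differences were Cenpf at −0.69 and Aurkb at −0.27, named here after their values were seen. For Aurkb the treated hearts ran from −1.99 to −0.05 and the untreated hearts from −1.71 to −0.01.

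Genes that mitotic cells switch on together often share short promoter elements, so promoter windows are shown for the 5 genes with the smallest p among the members of the cell cycle and repair lists. Dscc1, which had a smaller p than 4 of them, is on none of these lists. Each runs from 150 bases before to 50 bases after the gene's start in RefSeq, build GRCm38.p6. Bub1b lies at chr2:118598061-118598260 and Cdca5 at chr19:6084947-6085146 on the plus strand, as does Kif11 at chr19:37376232-37376431. Neil3 lies at chr8:53639016-53639215 and Bub1 at chr2:127831810-127832009 on the minus strand. Capitals mark TTTGAA, the core of the cell cycle homology region, and CCAAT, the box bound by NF-Y, on either strand, so that TTCAAA and ATTGG are the same elements on the other strand.
Bub1b: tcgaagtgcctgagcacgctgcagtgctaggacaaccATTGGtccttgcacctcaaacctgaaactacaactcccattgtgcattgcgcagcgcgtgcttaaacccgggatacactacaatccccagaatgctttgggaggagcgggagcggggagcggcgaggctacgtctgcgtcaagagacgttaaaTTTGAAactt
Cdca5: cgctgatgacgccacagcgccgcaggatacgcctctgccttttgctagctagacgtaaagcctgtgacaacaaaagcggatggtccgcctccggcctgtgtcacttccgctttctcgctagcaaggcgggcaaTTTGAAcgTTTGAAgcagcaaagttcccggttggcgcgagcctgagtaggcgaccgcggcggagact
Kif11: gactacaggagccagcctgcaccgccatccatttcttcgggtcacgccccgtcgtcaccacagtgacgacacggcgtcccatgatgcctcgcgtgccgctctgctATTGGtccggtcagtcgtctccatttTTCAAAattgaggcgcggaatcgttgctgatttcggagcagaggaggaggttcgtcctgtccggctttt
Neil3: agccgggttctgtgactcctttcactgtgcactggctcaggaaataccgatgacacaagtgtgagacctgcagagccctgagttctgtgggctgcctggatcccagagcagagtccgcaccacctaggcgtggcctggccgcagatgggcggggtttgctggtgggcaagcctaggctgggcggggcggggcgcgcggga
Bub1: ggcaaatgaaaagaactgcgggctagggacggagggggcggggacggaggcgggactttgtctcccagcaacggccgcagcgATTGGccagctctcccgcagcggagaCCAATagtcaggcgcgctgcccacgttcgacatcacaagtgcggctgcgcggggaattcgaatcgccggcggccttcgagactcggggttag

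TTTGAA stood in 3 of these 5 windows, at 41 bases after the start in Bub1b, at −17 and −9 in Cdca5 and at −19 in Kif11. A CCAAT box stood at −113 in Bub1b, at −45 in Kif11 and at −68 and −42 in Bub1, and Neil3 had neither motif in its window. Over all 32851 promoter windows of the same length, 11.2% held TTTGAA and 28.6% held CCAAT. Among the 64 windows of the mitosis list, 43 (67.2%) held TTTGAA and 39 (60.9%) held CCAAT. Those windows belonged to 58 of the 71 genes. A match of letters is a description of these windows and shows no binding. The promoter sequences used here held no window for Dscc1, Ccnd1 and Qpct.

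DNA replication genes were higher too, by less. Of 40 measured genes, 33 (82.5%) had a higher mean in treated hearts and the median difference was 0.17, with 12 higher and 1 lower at an unadjusted p under 0.05 in the control hearts alone, where 3.94% and 2.54% of all genes were counted. In the fit of all arrays there were 8 higher and 1 lower, against 2.87% and 1.86% of all genes. The median was 0.07 with the filter on low mean ratios. None passed the adjusted threshold. Mcm6, a subunit of the replicative helicase, was −1.87, −1.95, −2.11, −2.08 and −1.93 in treated hearts and −3.43, −2.99, −2.58, −3.20 and −2.79 in untreated hearts. The groups did not overlap, and the difference was 1.01 ± 0.15 (SE, adjusted p = 0.0569). Pole2, a subunit of DNA polymerase epsilon, differed by 0.64 ± 0.10 (adjusted p = 0.0569) and the thymidine kinase gene Tk1 by 0.53 ± 0.09 (adjusted p = 0.0761). Mcm10 differed by 0.58, Top2a by 0.94 and Rrm2 by 0.48, all without overlap between the groups. Dtl, not on the list, is an adaptor of a ubiquitin ligase that acts in S phase; it differed by 0.59 ± 0.08 (adjusted p = 0.0557), although its probes disagreed, with differences of −0.01 and 1.19.

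DNA repair genes were split in direction. Of 28 genes 14 were higher and 14 lower, the median difference was −0.01, and Neil3 was the member that rose. The mean ratio of the list ran from 0.25 to 0.37 in treated hearts and from 0.08 to 0.25 in untreated hearts, so it lay higher in treated hearts while the median difference lay near 0. Exo1, an exonuclease of mismatch repair, differed by 0.95 ± 0.15 (SE, adjusted p = 0.0701), and Fanci, of the Fanconi anaemia pathway, by 0.82 ± 0.13 (adjusted p = 0.0691), with 0.09 and 1.56 for its 2 probes. Other glycosylases of base excision repair lay near 0 or apart from Neil3: Ogg1 differed by −0.26, Nthl1 by −0.17 and Mutyh by 0.36, and all of them overlapped between the groups.

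At the entry into the cycle, Ccnd1 stood out among 18 cyclins, kinases and E2F factors, whose median difference was 0.09 with 10 of 18 higher. Their mean ratio ran from −0.39 to −0.21 in treated hearts and from −0.62 to −0.44 in untreated hearts, without overlap. E2f1 and E2f2, factors that switch on S phase genes, were higher by 0.35 ± 0.09 and 0.37 ± 0.09 (SE) without overlap, and Mycn by 0.59 ± 0.17, and none of them passed the adjusted threshold. Ccnd2, or cyclin D2, lay in the other direction, at −0.32 ± 0.12, with overlapping groups. The 7 inhibitors of cyclin-dependent kinases had a median difference of 0.03. Among them Cdkn1c differed by −0.21 and Cdkn2c by 0.25, neither past the adjusted threshold.

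**Figure D2:**
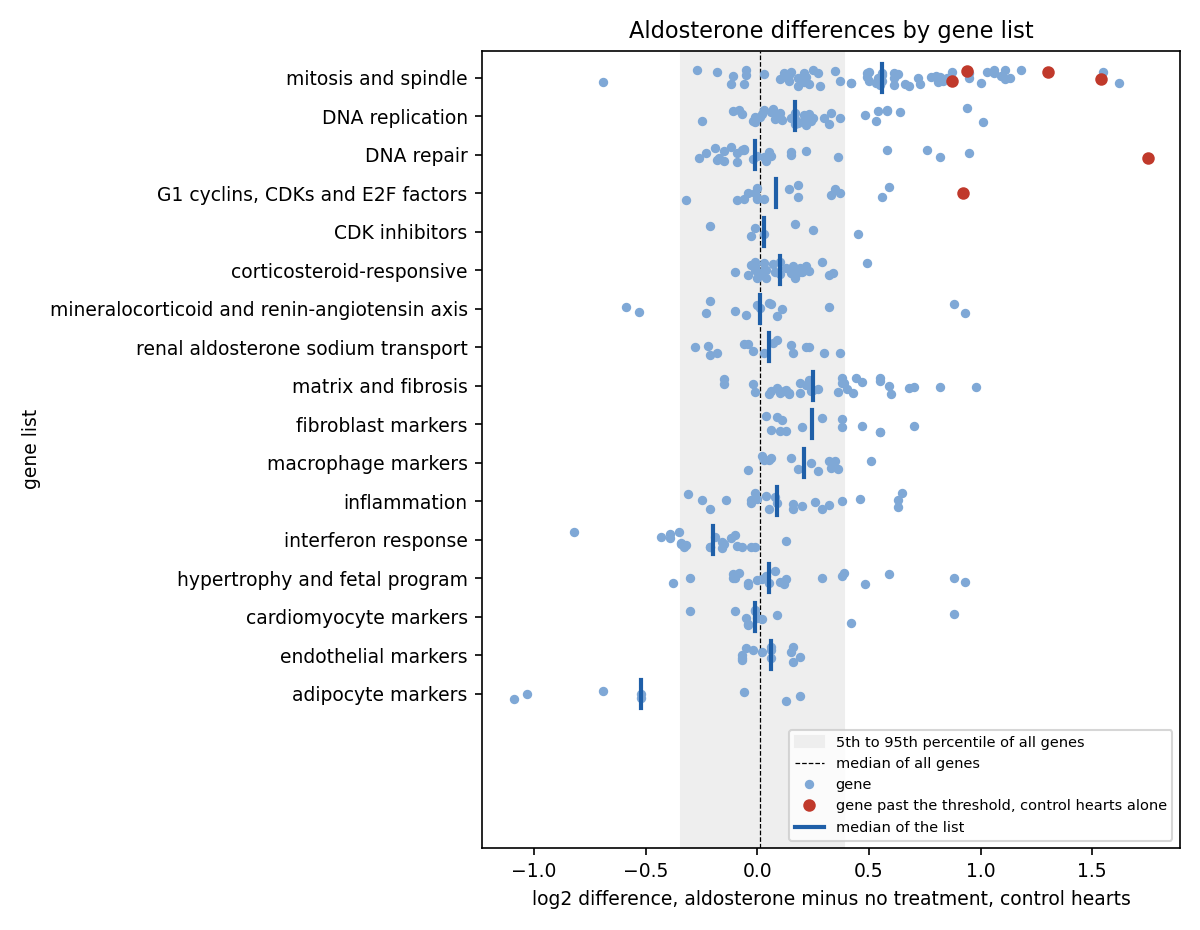
Log2 difference of treated minus untreated control hearts (horizontal axis) for each gene of 17 lists (rows), with the median of a list as a blue bar, genes past the adjusted threshold in red, and the grey band from the 5th to the 95th percentile of all genes. The mitosis list lies furthest to the right, with a median of 0.56, while the corticosteroid-responsive list stays near its median of 0.10.

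Among 33 known targets of corticosteroid receptors, 25 (75.8%) had a higher mean in treated hearts, against 52.2% of all genes, and the median difference was 0.10. At an unadjusted p under 0.05, 0 of them were counted in either fit, against 6.48% of all genes in the control hearts alone and 4.73% in the fit of all arrays. With 33 genes those shares come to few genes, so nothing is read from the count of 0. In MR-Cardio hearts 16 of the 33 had a higher mean with aldosterone, and the median difference was −0.02. Sgk1, the kinase that carries aldosterone's signal in the kidney, was −0.08, 0.33, 0.01, 0.06 and 0.00 in treated hearts and −0.12, −0.31, 0.26, −0.44 and 0.10 in untreated hearts. The 2 groups overlapped, with a difference of 0.16 ± 0.14 (SE). Tsc22d3, which encodes GILZ, differed by 0.23 ± 0.13 and the clock gene Per1 by 0.16 ± 0.17. Fkbp5, a co-chaperone of steroid receptors, differed by 0.03 ± 0.11 and Zbtb16 by −0.10 ± 0.23. Cebpd, a transcription factor of acute responses, had the smallest p of the list (0.32 ± 0.16, adjusted p = 0.80).

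Receptor genes gave no call in either fit. Nr3c2, the mineralocorticoid receptor, was 0.43, 0.34, 0.02, 0.21 and 0.09 in treated hearts and 0.55, 0.48, 0.18, 0.47 and 0.48 in untreated hearts, which overlap. The overlap came from untreated mouse 3, at 0.18, and the other untreated hearts lay above every treated heart. The difference was −0.21 ± 0.10 (SE, adjusted p = 0.785). Nr3c1, the glucocorticoid receptor, differed by 0.09 ± 0.05. Hsd11b2, the enzyme that inactivates corticosterone and so shields the receptor in kidney, was far below the reference pool, at means of −2.89 in treated and −3.20 in untreated hearts. Hsd11b1, which works in the opposite direction, had the same mean of −2.57 in both. Mas1, the receptor for angiotensin 1-7, had the smallest p among 15 genes of this axis, at −0.53 ± 0.14, with an unadjusted p of 0.0031 that did not pass adjustment. Enpep, an aminopeptidase that trims angiotensin II and is not on that list, was −2.25, −2.24, −2.22, −2.44 and −2.28 in treated hearts and −3.27, −2.83, −3.10, −2.91 and −2.83 in untreated hearts. Its groups did not overlap (0.70 ± 0.10, adjusted p = 0.0557). Of 16 genes of renal sodium transport 9 were higher, with a median difference of 0.05.

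Matrix genes tended to be higher. Of 35 genes, 31 (88.6%) had a higher mean in treated hearts and the median difference was 0.25, but 0 passed the adjusted threshold. At an unadjusted p under 0.05 there were 14 higher and 0 lower in the control hearts alone, against 3.94% and 2.54% of all genes. In the fit of all arrays there were 1 and 0, against 2.87% and 1.86%, so that there the share of the list was that of the background. The median SD of these genes was 0.25 in treated and 0.25 in untreated control hearts, 0.65 in treated and 0.72 in untreated MR-Cardio hearts. Col1a1, the main fibrillar collagen, was 0.58, −0.23, 0.40, 0.23 and 0.32 in treated hearts and −0.76, 0.34, −0.11, −0.46 and −0.46 in untreated hearts. Treated mouse 2 was low and untreated mouse 2 high, so the groups overlapped, with a difference of 0.55 ± 0.21 (SE). Col3a1 differed by 0.55 ± 0.24, Postn, a matrix protein of activated fibroblasts, by 0.70 ± 0.34, and Ccn2, a matricellular growth factor, by 0.24 ± 0.19. Thbs1, or thrombospondin 1, differed by 0.98 ± 0.24 and Col15a1 by 0.82 ± 0.21. Col4a1, a basement membrane collagen, separated the groups (0.38 ± 0.09, adjusted p = 0.311).

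Fibroblast markers lay with the matrix genes, and 6 genes belong to both lists. All 14 were higher in treated hearts, by 0.04 to 0.70, with a median of 0.24, and 6 passed an unadjusted p of 0.05 in the control hearts alone, against 3.94% of all genes in this direction. In the fit of all arrays 0 of the 14 did, against 2.87%. Their mean ratio was 1.65, 1.17, 1.48, 1.40 and 1.51 in treated hearts and 0.90, 1.49, 1.17, 1.03 and 1.17 in untreated hearts. Untreated mouse 2 lay among the treated hearts and treated mouse 2 among the untreated ones. In RNA of whole ventricle, more cells of a type and more RNA per cell cannot be told apart. Plat, or tissue plasminogen activator, a protease of clot and matrix turnover, was 0.81, 0.54, 0.50, 0.61 and 0.60 in treated hearts and −0.01, 0.14, 0.19, 0.02 and 0.16 in untreated hearts. Its groups did not overlap (0.51 ± 0.08, adjusted p = 0.0569).

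**Figure D3:**
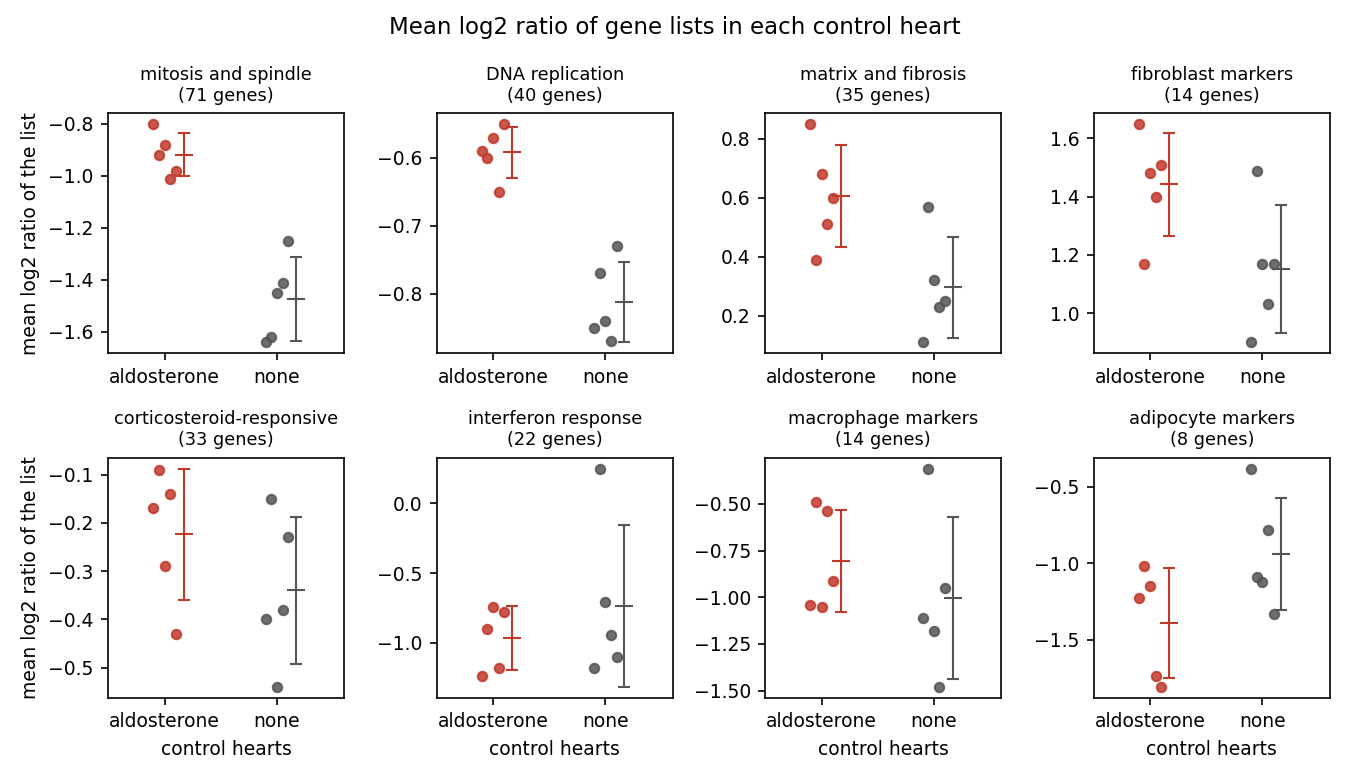
Mean log2 ratio of a gene list in each control heart (vertical axis, scaled per panel) for 8 lists, with treated mice in red at the left and untreated mice in grey at the right, 1 point per mouse, and the mean with SD as a bar (n = 5 each). The groups separate for mitosis and DNA replication and overlap for the other lists shown, and untreated mouse 2 stands highest for interferon response and macrophage markers.

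Other cell types were followed beside the mitotic genes. Endothelial markers had a median difference of 0.06 over 13 genes and cardiomyocyte markers of −0.01 over 12 genes. The mean ratio of the endothelial list ran from 1.42 to 1.54 in treated hearts and from 1.33 to 1.52 in untreated hearts. Macrophage markers were higher for 13 of 14 genes, with a median of 0.21. That median was 0.41 without untreated mouse 2, 0.09 without untreated mouse 4 and 0.05 with the filter on low mean ratios. Their list mean ran from −1.05 to −0.49 in treated hearts and from −1.48 to −0.31 in untreated hearts. At an unadjusted p under 0.05, 0 of these 14 genes were counted in either fit. Among all genes the shares were 6.48% in the control hearts alone and 4.73% in the fit of all arrays. With 14 genes nothing is read from the count of 0. Neutrophil and lymphocyte markers lay far below the pool, with list means from −4.21 to −3.76 and from −3.03 to −2.85 in treated hearts, and from −4.27 to −3.88 and from −3.00 to −2.66 in untreated hearts. Of 6 erythroid genes 5 were higher, and Alas2, the first enzyme of haem synthesis in red cell precursors, differed by 0.75 ± 0.22 (SE) without overlap. The part of these cell types in the mitotic genes was not tested.

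Inflammation and interferon genes gave no call. Of 23 inflammation genes 15 were higher, with a median of 0.09, and 3 were higher at an unadjusted p under 0.05 in the control hearts alone, against 3.94% of all genes. In the fit of all arrays 0 were, against 2.87%. The median was 0.21 without untreated mouse 2, 0.03 without untreated mouse 4 and 0.04 with the filter on low mean ratios. Il1r1, a receptor for interleukin 1, differed by 0.32 ± 0.09 (SE) without overlap. Il1rn, the antagonist of that receptor and not on the list, was −2.73, −2.09, −2.46, −1.99 and −1.63 in treated hearts and −1.12, −0.94, −1.08, −1.0 and −1.48 in untreated hearts. It was lower in every treated heart, at −1.06 ± 0.20 (adjusted p = 0.125). Of 22 interferon-response genes 21 were lower. At an unadjusted p under 0.05, 0 of the 22 were counted in either fit. Among all genes the shares were 6.48% in the control hearts alone and 4.73% in the fit of all arrays. With 22 genes those shares come to few genes, so nothing is read from the count of 0. The list mean ran from −1.24 to −0.74 in treated hearts, while in untreated hearts mouse 2 had 0.25 and the others −1.18 to −0.71. Without untreated mouse 2 the median of the list was 0.04 instead of −0.20.

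The hypertrophy list had a median difference of 0.05 over 23 genes, and larger differences in a few of them. Its mean ratio was 1.33, 1.16, 1.14, 1.19 and 1.15 in treated hearts and 0.98, 1.10, 1.10, 1.08 and 0.98 in untreated hearts, without overlap. Csrp3, or muscle LIM protein, a stretch-linked protein of the Z disc, was 3.35, 3.23, 3.31, 3.33 and 3.26 in treated hearts and 2.65, 2.93, 2.89, 2.81 and 2.81 in untreated hearts. The treated hearts were nearly alike and all above the untreated ones, with a difference of 0.48 ± 0.07 (SE, adjusted p = 0.0557). Nppa, the gene of atrial natriuretic peptide, was 0.45, 0.09, 0.14, 0.29 and 0.03 in treated hearts and −1.26, 0.27, −1.34, 0.08 and −1.14 in untreated hearts. Its untreated hearts fell into 3 low and 2 high values, and the high ones lay within the treated range (0.88 ± 0.33, adjusted p = 0.64). Nppb, of B-type natriuretic peptide, differed by 0.93 ± 0.33. Among the myosin heavy chains, Myh7 differed by −0.38 ± 0.36 and Myh6 by −0.30 ± 0.13, and all of these groups overlapped.

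Genes that were lower in treated hearts gave no call in either fit with all mice and the main settings. Clones and predicted genes were left out of the ranks given here. The smallest p in the control hearts alone was then that of Smim19, a gene of a small membrane protein, at −0.38 ± 0.06 (SE, adjusted p = 0.0687). Smim19 had 0.72, 0.82, 0.89, 0.84 and 0.82 in treated hearts and 1.25, 1.21, 1.27, 1.15 and 1.11 in untreated hearts. Mro followed at −0.50 ± 0.08 and Osgin1, a gene induced by oxidative stress, at −0.34 ± 0.05, each with an adjusted p of 0.0691. Tinf2, a protein that protects telomeres, had the smallest p of the fit of all arrays among lower genes, at −0.25, and Reln, the secreted protein reelin, differed by −1.05. All 5 separated the groups, as did 0.493% of all genes in this direction.

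Fat genes were lower in part. Of 8 adipocyte markers 6 were lower, with a median difference of −0.52, and 3 of them passed an unadjusted p of 0.05 in the control hearts alone, against 2.54% of all genes: Adipoq (−1.09 ± 0.45, SE), Cidec (−1.03 ± 0.38) and Retn (−0.52 ± 0.20). In the fit of all arrays 2 passed, against 1.86%. The median of the list was −0.19 without untreated mouse 1 and 0.13 with the filter on low mean ratios, which turned its direction. Adipoq ran from −4.88 to −2.64 in treated hearts and from −3.14 to −1.97 in untreated hearts, so the groups overlapped. Lipe, the hormone-sensitive lipase, not among those markers, was 0.41, 0.36, 0.64, 0.37 and 0.53 in treated hearts and 1.08, 1.26, 0.90, 0.74 and 0.85 in untreated hearts, a difference of −0.51 ± 0.11 (adjusted p = 0.191). The part of fat tissue in these differences was not tested.

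The aldosterone difference of control hearts was then set beside that of MR-Cardio hearts. The arrays of the 2 genotypes differed in scale. Slopes of the spike-in probes against their mean over arrays ran from 0.964 to 0.982 in control hearts. In MR-Cardio hearts they ran from 1.003 to 1.029. The lowest ratio of an array lay between −10.55 and −9.51 in control hearts and between −12.71 and −11.14 in MR-Cardio hearts. Levels and sizes of differences are therefore set side by side across genotypes with caution. The 2 aldosterone differences share no mouse, but the MR-Cardio test came from the fit of all arrays. In MR-Cardio hearts, 314 genes passed the adjusted threshold (1.43%), 208 higher and 106 lower. The control mice helped set the spread of each gene in that fit, so these calls are not independent of the control hearts. The same holds for the counts of control differences at an unadjusted p under 0.05 among the called genes. Of the 208 genes, 192 (92.3%) also had a higher mean in treated than in untreated control hearts, against 52.2% of all genes. At an unadjusted p under 0.05, 126 of the 208 were higher there, against 3.94% of all genes. Of the 106 genes, 71 were lower in treated control hearts and 35 (33.0%) higher, against 52.2% of all genes higher. At that unadjusted level 14 of the 106 were lower, against 2.54% of all genes. Of the 8 genes that rose in control hearts, 5 also rose in MR-Cardio hearts: Neil3 (2.08 ± 0.32, SE), Bub1b (1.74 ± 0.28), Bub1 (2.03 ± 0.34), Cdca5 (1.38 ± 0.24) and Kif11 (1.58 ± 0.30). Dscc1 differed there by 1.30 ± 0.37 (adjusted p = 0.0839), Qpct by 0.45 ± 0.16 and Ccnd1 by 0.23 ± 0.18.

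The mitosis list had a median difference of 0.56 in control hearts and of 1.03 in MR-Cardio hearts. In MR-Cardio hearts 45 of its 71 genes rose, against 0.95% of all genes. The median SD over these genes was 0.21 in treated and 0.28 in untreated control hearts, and 0.68 in treated and 0.36 in untreated MR-Cardio hearts, so the treated MR-Cardio mice were the least alike. Neil3 ran from −1.52 to 0.90 (median 0.35) in treated MR-Cardio hearts and from −2.76 to −1.37 (median −2.05) in untreated ones. The difference between the genotypes was tested as an interaction, the aldosterone difference of MR-Cardio hearts minus that of control hearts, and 0 of 21892 genes (0%) passed the adjusted threshold, with 1197 (5.47%) at an unadjusted p under 0.05. Of the mitosis genes, 7 of 71 were among these, all with the larger difference in MR-Cardio hearts. That direction was shown by 2.05% of all genes at that level. Of 33 corticosteroid-responsive genes, 6 had the smaller difference in MR-Cardio hearts and 2 the larger, at an unadjusted p under 0.05. For 27 genes of fatty acid oxidation these counts were 6 and 0. For all 21892 genes they were 748 and 449, together 5.47%, with 2.05% larger in MR-Cardio hearts. Both lists were picked after their values were seen.

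The genes with the smallest interaction p had differences of opposite sign in the 2 genotypes. Pfkfb2, the heart form of the enzyme that makes the glycolytic activator fructose 2,6-bisphosphate, differed by 0.30 in control hearts and by −0.69 in MR-Cardio hearts. Gramd1b, a carrier of cholesterol between membranes, differed by 0.62 in control hearts and by −0.24 in MR-Cardio hearts. Lpar3, a receptor for lysophosphatidic acid, differed by −0.60 in control hearts and by 1.07 in MR-Cardio hearts. These 3 genes had interaction p-values of 6.41e-05, 0.000117 and 0.000125 in limma and an adjusted p of 0.684 each. The clones Gm9548 and 4921531C22Rik completed the 5 smallest.

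Ccnd1 and Enpep had small aldosterone differences in MR-Cardio hearts. Ccnd1 averaged −0.34 ± 0.24 in treated and −1.26 ± 0.13 in untreated control hearts (SD, n = 5 each). In MR-Cardio hearts it averaged −0.22 ± 0.54 with aldosterone (SD, n = 6) and −0.45 ± 0.25 without (SD, n = 7). On the values as deposited, 3 of the 4 groups lay close together and untreated control hearts lay lower. The arrays of the 2 genotypes differed in scale, so levels of Ccnd1 and Enpep are compared only loosely between genotypes. The interaction was −0.70 ± 0.27 (SE, unadjusted p = 0.0182, adjusted p = 0.876 in limma). Enpep averaged −2.29 ± 0.09 in treated and −2.99 ± 0.19 in untreated control hearts (SD), and −3.07 ± 0.18 in treated and −3.18 ± 0.42 in untreated MR-Cardio hearts. Its interaction was −0.59 ± 0.22 (SE, adjusted p = 0.876 in limma), and neither interaction passed the adjusted threshold.

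**Figure D4:**
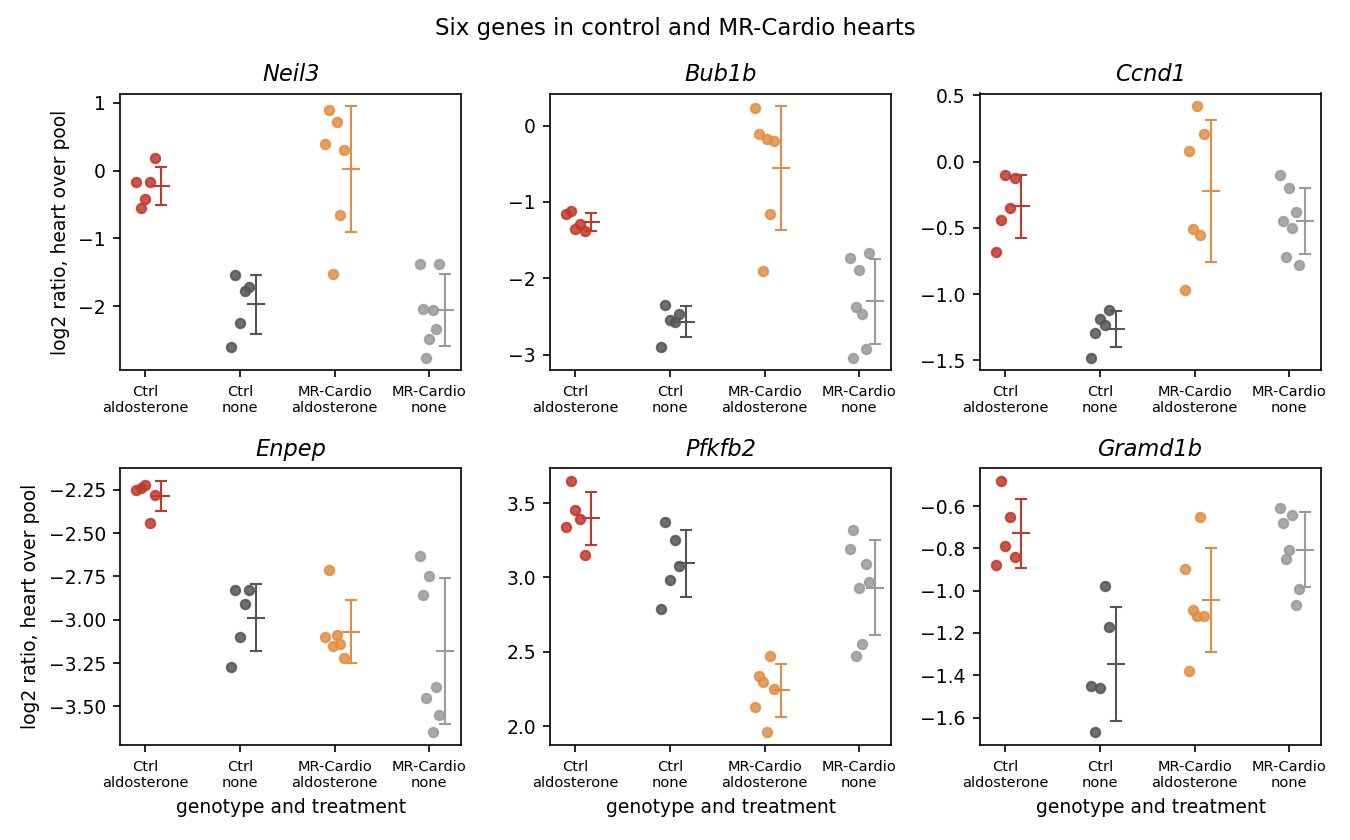
Log2 ratio of heart over the reference pool (vertical axis, scaled per panel) for 6 genes in treated and untreated control hearts (n = 5 each) and in treated (n = 6) and untreated (n = 7) MR-Cardio hearts, with 1 point per mouse and the mean with SD as a bar. Neil3 and Bub1b are higher with aldosterone in both genotypes, by 1.75 and 1.30 in control hearts and by 2.08 and 1.74 in MR-Cardio hearts, while Pfkfb2 and Gramd1b differ in opposite directions.

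Groups of genes for energy use and heart rhythm lay near 0. The median difference was −0.04 for 36 genes of oxidative phosphorylation, 0.01 for 27 of fatty acid oxidation and 0.02 for 22 of glycolysis. It was 0.06 for 31 ion channel and calcium handling genes, −0.02 for 23 genes of oxidative stress, 0.01 for 27 of angiogenesis and −0.08 for 18 clock genes. Slc25a20, the carnitine carrier of mitochondria, separated the groups by a small difference of 0.16 ± 0.06 (SE). Angpt2, an antagonist of the Tie2 receptor, differed by −0.52 ± 0.14, and the clock repressor Nr1d1 by −0.50 ± 0.19. Egr2, an immediate early gene, differed by 0.81 ± 0.24. None of these 4 passed the adjusted threshold.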

How the data were processed

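The values the authors deposited are log2 ratios of heart (Cy5) over a pooled reference (Cy3), 1 per probe and array, with the dyes per the labels and no dye swap. The submitters' processing notes name Agilent Feature Extraction, version 10.7.3.1. Base and sign were inferred from the values: 10 spike-in probes span 5.86 units, and heart genes lie above 0. The sources used here do not give background correction or within-array normalization.

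From 39485 lines, 56 control probes were left out, and 8804 probes were unnamed. Probes of a gene were averaged to 21892 genes, 15085 of them with 1 probe. Groups came from the sample titles, and each array was 1 mouse with its own animal number, so p-values refer to the spread between mice. The test was limma's (version 3.58.1, R 4.3.3; lmFit, eBayes, two-sided, Benjamini-Hochberg over all genes, threshold 0.05), over all 23 arrays and over the 10 control hearts alone. A fold is 2 to the power of a log2 difference. Values with SE come from the control hearts alone, those of MR-Cardio hearts and interactions from all arrays. No further normalization was applied. The test was also tried on simulated data, and nothing is drawn from that trial here.

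The 38 gene lists, 669 of whose 706 genes were measured, and the genes named were chosen with earlier results of these data known. Named genes were Neil3 and Ccnd1, the 12 smallest p-values in each direction and fit, up to 4 members per list (10 in 3 cell cycle lists), 17 genes of receptor action, hypertrophy and fibrosis, and the 5 smallest interaction p-values. Names of clones and predicted genes were left out of the 12 smallest p-values. From these the text gives those that fit its lists. Myl2, Irx4, Myl7, Sln, Ucp1, Ccnd2, Cenpf, Aurkb, Alas2, Adipoq, Cidec and Retn were named after their values were seen. Lists are described by counts and medians, with no test. Promoters are from RefSeq, GRCm38.p6.

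Alternatives were centring on the median, quantile normalization, division by the slope of the spike-ins, their offset as a covariate (added after seeing the data), the most variable probe, single probes, a filter on low ratios, trend and robust eBayes, array weights, the sample number as a block, other thresholds and leaving out each mouse. Lists of atrial, mural cell, mesothelial, glial, skeletal muscle, liver, brain, kidney and spleen markers and of immediate early genes had medians of −0.09, 0.05, −0.05, 0.15, 0.17, −0.03, 0.10, −0.01, 0.03 and 0.06.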

Additional observations from a re-analysis of the deposited data

Results flagged for a closer look

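Among 248 groups of 5 mice tested, 8 single values lay far from the other 4 of their group by Dixon's criterion, which chance meets in about 1 of 20 groups. Untreated mouse 1 had a Ucp1 ratio of −1.64, against −5.87 to −4.91 in the other untreated hearts. The same mouse had 0.82 for Col4a1, below the 1.06 to 1.14 of the others, and 2.13 for Col15a1, above their 1.47 to 1.61. Untreated mouse 5 had −1.12 for Pole2, below −0.77 to −0.65. Untreated mouse 3 had 0.18 for Nr3c2, below 0.47 to 0.55. Treated mouse 1 had the highest mean ratio of the hypertrophy list, 1.33 against 1.14 to 1.19, and of the renal sodium transport list, −1.11 against −1.32 to −1.26. Untreated mouse 2 had −0.86 for the mean ratio of oxidative stress genes, above −1.11 to −1.05.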

How the results depend on the processing

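With the control hearts alone, the 8 calls became 3 with the spike-in offset as a covariate, chosen after seeing the data, 13 over single probes, 23 with array weights, and 0 when the genes with the lowest mean ratios were left out, where 963 genes had an unadjusted p under 0.05. There were 47 at an adjusted p under 0.1 and 1419 at an unadjusted p under 0.05. Leaving out each mouse gave 1 to 30 calls. A lower gene was called, 1 each time, with quantile normalization, without untreated mouse 3 and without treated mouse 1. In the fit of all arrays 0 calls held under every alternative except that leaving out a mouse gave 0 to 1, and 1036 genes had an unadjusted p under 0.05. The interaction likewise gave 0 to 1, with 1197 at an unadjusted p under 0.05. In MR-Cardio hearts the 314 calls became 94 with the filter on low ratios, 680 at an adjusted p under 0.1 and 3109 at an unadjusted p under 0.05. The filter on low ratios moved the medians of the lists of mitosis to 0.13, DNA replication to 0.07, G1 regulators to 0.00, glial markers to 0.00, erythroid markers to 0.52 and adipocyte markers to 0.13, by keeping fewer genes; no liver, kidney or spleen marker was left. The most variable probe gave −0.02 for endothelial markers. None of the 8 genes that rose in control hearts reversed its direction under any of these alternatives. Among named genes past no adjusted threshold, leaving out a mouse moved the differences of Fkbp5 to between −0.02 and 0.12, Zbtb16 to between −0.26 and 0.05, Irx4 to between −0.11 and 0.06 and Ucp1 to between −0.98 and 0.08. Sample numbers recur in both groups. Deviations of mice with the same number correlated at 0.02, 0.06, 0.21, −0.06 and −0.14, and those with different numbers at −0.24 to 0.21. With so few mice these values cannot settle whether the numbers pair the mice. With the number as a replicate block, 0 genes were called in control hearts alone (1416 at an unadjusted p under 0.05) and 154 in MR-Cardio hearts.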
